A study of Mus musculus with 6 samples.

Results

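Fibroblasts of the brain borders lie in the meninges, the membranes that cover the brain, and around the larger vessels that enter it. They build the collagen and basement membrane of these borders, carry solute transporters of the cerebrospinal fluid boundary, and send growth factors and retinoic acid to the underlying tissue. In cerebral amyloid angiopathy, amyloid collects in the walls of the leptomeningeal and cortical vessels that these cells accompany. The nuclei described here were chosen by marker genes among all nuclei of 6 frontal lobe libraries. A nucleus needed at least 200 detected genes and at most 5% of its unique molecular identifiers (UMIs, the counted transcripts) from mitochondrial genes. It then needed at least 4 UMIs, and at least 0.4% of its UMIs, over Dcn, Col1a1, Col1a2, Lum, Slc6a13, Slc13a3, Igf2 and Col3a1. At most 1 UMI was allowed over the mural genes Rgs5, Vtn and Kcnj8, at most 1 over the endothelial genes Cldn5 and Flt1, and at most 1 over the macrophage genes Mrc1, F13a1 and Cd163. Of 39752 barcodes 34281 were kept, and 52 of these passed as fibroblast nuclei.

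The libraries came from Tg-SwDI mice with Trem2 knocked out, named SwDI/TKO (3 mice), and from Tg-SwDI mice with intact Trem2, named SwDI/TWT (3 mice), 1 library a mouse. All 6 mice carry the human amyloid precursor protein transgene with Swedish, Dutch and Iowa changes, which a Thy1 promoter drives in neurons, so no mouse without amyloid is among them. The sources used here state neither the age of the mice nor the kind of Trem2 allele. Droplet-based single-nucleus RNA sequencing counted the 3′ ends of transcripts, and the comparison asks what Trem2 loss does in a brain with vascular amyloid.

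SwDI/TKO replicate 1 stood apart. It held 51317961 UMIs, against 11493087 to 17835287 in the other 5 libraries, and it was counted with Cell Ranger 7.0.0 where the others were counted with 6.1.2. Its kept nuclei had a median of 5419 UMIs, against 1476 to 2502 elsewhere. Any pair of libraries shared 8 to 18 cell barcodes. Trem2 (mm10 chromosome 17, 48346401 to 48354147, plus strand), a lipid-sensing receptor of microglia, had 2.92, 14.6 and 7.92 UMIs per 1000000 UMIs (CPM) over all kept nuclei of SwDI/TKO replicates 1 to 3, against 30.7, 18.4 and 15.6 CPM in SwDI/TWT replicates 1 to 3, so reads of the gene remained in every SwDI/TKO library. In the fibroblast nuclei Trem2 had 0 UMIs in every library. By a limit of 3 counts, a count of 0 in 52 nuclei allows a share of up to 5.77% of nuclei with a Trem2 UMI.

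The fibroblast nuclei were few in every library. SwDI/TKO replicates 1 to 3 held 9, 0 and 8, against 7, 11 and 17 in SwDI/TWT replicates 1 to 3. They carried 58791 UMIs in all, with 16549 and 9716 in SwDI/TKO replicates 1 and 3 and with 6273, 9140 and 17113 in the SwDI/TWT libraries. The median member had 1016 UMIs and 589 genes, with a range of 504 to 2676 UMIs and 344 to 1536 genes. Members of SwDI/TKO replicate 1 were the deepest, at a median of 1799 UMIs, followed by 990.5 in SwDI/TKO replicate 3 and by 691, 885 and 1028 in the SwDI/TWT libraries. The gate genes gave a median of 6 UMIs a nucleus, between 4 and 18.

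**Figure D1:**
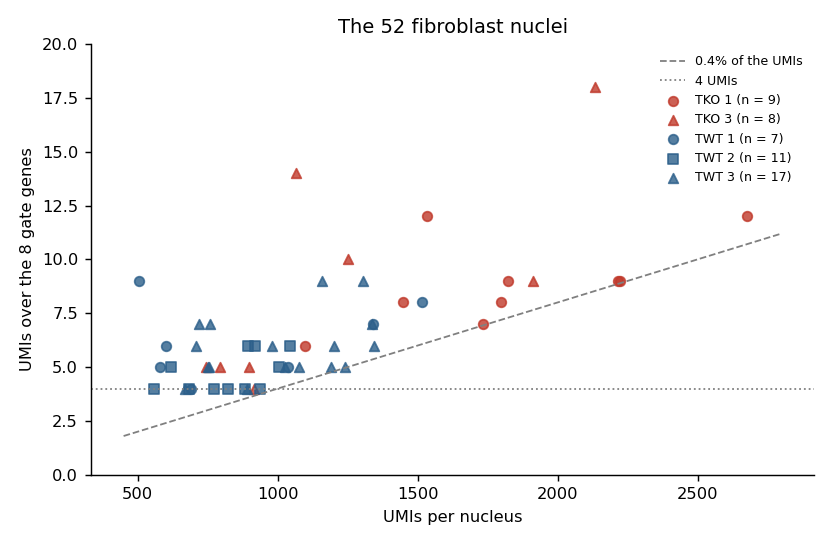
Each point is 1 of the 52 fibroblast nuclei, with its total UMIs on the horizontal axis and its UMIs over the 8 gate genes on the vertical axis, in red for SwDI/TKO and blue for SwDI/TWT libraries. The dotted line marks 4 UMIs and the dashed line 0.4% of the UMIs. The nuclei of SwDI/TKO replicate 1 lie at 1098 to 2676 UMIs, where the dashed line is the higher of both. Some nuclei of other libraries lie in that range too.

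Among the genes that chose the nuclei, a solute carrier was the most frequent. Slc6a13, a GABA and taurine transporter of the leptomeninges, gave 135 UMIs in 43 of 52 nuclei. Col1a2, a chain of type I collagen, gave 57 UMIs in 29 nuclei, and Slc13a3, a dicarboxylate transporter, 40 UMIs in 27. Igf2, insulin-like growth factor 2, gave 43 UMIs in 24 nuclei, and Dcn, the collagen-binding proteoglycan decorin, 53 UMIs in 21. Col1a1, the partner chain of Col1a2, gave only 9 UMIs in 7 nuclei. Lum, the proteoglycan lumican, and Col3a1, type III collagen, gave 5 UMIs each, in 5 and 3 nuclei. A transporter and a matrix gene of the gate stood together in 39 nuclei, a transporter without matrix gene in 8, and a matrix gene without transporter in 5. These values follow from the choice of the nuclei and carry no test. Lum was sparse in these nuclei: of its 593 UMIs over all kept nuclei 5 lay in the fibroblast nuclei, with at most 1 UMI in any member. The 7293 excitatory neuron nuclei held 44. Scaled by depth, Lum stood at 85.0 CPM in the fibroblast nuclei, against 5.21 CPM in all other kept nuclei. The level in the fibroblast nuclei rests on 5 UMIs of a gene that helped to choose them.

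The nuclei just inside and just outside the thresholds had much the same leading gene. The 20 members with 0.4% to 0.5% of their UMIs from the gate genes had 25930 CPM of Ptgds, and the 19 nuclei at 0.3% to 0.4% that were otherwise alike had 24664. Of those 19 nuclei 13 came from SwDI/TKO replicate 1. Exactly 4 gate UMIs were found in 10 members, 5 of which are also among those 20, and 5 nuclei with 3 gate UMIs stayed outside. Of 81 nuclei that passed on the gate genes, 29 were removed by the exclusions, 24 of them by the single gene Vtn, the matrix protein vitronectin. The 29 removed nuclei had 108 Vtn UMIs and 0 UMIs of the pericyte genes Rgs5 and Kcnj8. The level of Ptgds was 26092 CPM in the 52 members and 25445 in the removed nuclei, and that of Slc7a11 was 3181 and 4401. Lum and Col1a1 were at 85.0 and 153 CPM in the members and at 275 and 390 in the removed nuclei.

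Beyond the gate, the leading genes were secreted proteins and solute carriers known from the leptomeninges. All levels are CPM of the pooled nuclei, which scales by depth and not by transcript length. Ptgds (mm10 chromosome 2), the prostaglandin D synthase secreted into cerebrospinal fluid, was the highest, with 1534 UMIs in 48 of 52 nuclei and 26092 CPM, against 365 CPM in all other kept nuclei together. Slc7a11 (chromosome 3, 49892526 to 50443614, minus strand), the cystine and glutamate exchanger, stood at 3181 CPM in 41 nuclei, against 26.2 CPM in the rest. Apod, the lipid carrier apolipoprotein D, had 122 UMIs in 37 nuclei, Cped1 113 in 41, and Ranbp3l 82 in 31. Aebp1, a matrix protein that binds collagen, had 62 UMIs in 35 nuclei.

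More of the solute carriers of the leptomeninges were present. Of 26 listed transporters 21 had a UMI, and together they made up 1.38% of the fibroblast UMIs, against 0.233% in vessel nuclei and 0.0722% in excitatory neurons. The gate genes Slc6a13 and Slc13a3 are on that list and gave 175 of its 812 UMIs, a part that the choice of the nuclei fixed. The other 24 transporters, 19 of them detected, made up 1.08% of the fibroblast UMIs, against 0.227% in vessel nuclei and 0.0721% in excitatory neurons. Slc13a4, a sulfate transporter, reached 901 CPM, and the organic anion transporters Slc22a8 and Slc22a6 reached 561 and 442 CPM. Slc38a2, an amino acid transporter, stood at 2177 CPM, Slc1a3, a glutamate transporter better known from astrocytes, at 1497, and Slc6a20a, a proline transporter, at 1446. Slc22a6 had 423 and 412 CPM in SwDI/TKO replicates 1 and 3 and 638, 438 and 409 CPM in the SwDI/TWT libraries. These levels rest on 4 to 7 UMIs a library.

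Each list of matrix genes gave a thinner signal than the transporter list. The 10 fibrillar collagen genes made up 0.155% of the UMIs, with 71 of their 91 UMIs from the gate genes Col1a1, Col1a2 and Col3a1, and Col5a2 had 9 of its 10 UMIs in SwDI/TKO replicate 1. Of 20 basement membrane genes 17 were detected, at 0.265% of UMIs, against 0.198% in vessel nuclei. Their share was 0.393% in SwDI/TKO replicate 1 and 0.131% to 0.251% in the other libraries with fibroblast nuclei. These genes were led by the laminin chains Lama1 (29 UMIs in 15 nuclei) and Lama2 (23 in 13). The matrix glycoproteins were the largest of these lists, at 0.568% of UMIs, against 0.215% in vessel nuclei. Without its gate genes that list stood at 0.469% and 0.212%. Among matrix glycoproteins the matricellular genes Ccn2 (66 UMIs in 22 nuclei) and Ccn1 (50 in 18) stood beside Dcn, and the small proteoglycan Fmod had 23 UMIs in 16 nuclei. Of 22 collagen processing genes 9 had a UMI, led by Pcolce, the procollagen protease enhancer, with 12. Timp3, a metalloprotease inhibitor held in the matrix, led the 22 proteases and inhibitors with 102 UMIs in 33 nuclei. Thbs2, Aspn, Fbn1, Vcan and the lysyl oxidase Lox had 0 UMIs, which at this depth allows up to 51.0 CPM each by a limit of 3 counts.

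Transcription factors and ligands known from the meninges were found as well, on lists that vessel nuclei shared in part. The forkhead factor Foxd1 had 37 UMIs in 26 nuclei, the zinc finger factors Zic1 and Zic2 had 26 UMIs in 21 and 20 UMIs in 16, and Tbx18 and Foxc1 had 16 and 17. Of 33 listed mesenchymal factors 25 were detected, at 0.572% of UMIs, against 0.414% in vessel nuclei. Bmp6 and Bmp7, ligands of the bone morphogenetic protein family, had 48 and 17 UMIs. Genes of transforming growth factor beta and bone morphogenetic protein signalling made up 0.247% of UMIs, against 0.165% in vessel nuclei. That level rested on SwDI/TKO replicate 1, which gave 80 of the 145 UMIs of the list and 41 of those of Bmp6. In the SwDI/TWT libraries the list was below the vessel level, at 0.0956%, 0.109% and 0.117%. Aldh1a2, which makes retinoic acid, had 14 UMIs in 11 nuclei, and Cyp26b1, which degrades it, 13 in 8. The retinoid list made up 0.0987% of UMIs, against 0.0432% in vessel nuclei. The growth factor binding protein Igfbp2 had 42 UMIs and Pdgfra, the platelet-derived growth factor receptor of fibroblasts, 25, of which 16 came from SwDI/TWT replicate 3. Vessel nuclei were higher for the list of growth factor ligands and receptors, at 0.447% of UMIs against 0.253% in fibroblast nuclei. The same held for the insulin-like growth factor list without the gate gene Igf2, at 0.341% against 0.126%.

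Most markers of other classes gave few UMIs in the fibroblast nuclei, in part by the rule, which limited Mrc1, F13a1, Cd163, Cldn5, Flt1, Rgs5, Vtn and Kcnj8. All 8 border macrophage markers were at 0 UMIs, the 5 that the rule did not use among them. Endothelial markers gave 30 UMIs in all (0.0510% of UMIs, with Cldn5 and Ly6c1 at 0) and mural markers 27 (0.0459%, with Rgs5, Kcnj8, Higd1b, Notch3 and Ndufa4l2 at 0). Without the genes the rule limited, 24 endothelial and 15 mural UMIs were left. Smooth muscle markers gave 32 UMIs, from Tagln and Lmod1, with Acta2, Myh11, Cnn1 and Pln at 0. Their share of 0.0544% was above the 0.00370% in vessel nuclei, and Tagln stood at 357 CPM, against 1.96 CPM in all other kept nuclei. Astrocyte markers made up 0.0561% of UMIs, against 0.0621% in excitatory neurons. They were lower in vessel (0.0321%), border macrophage (0.0165%) and oligodendrocyte nuclei (0.0162%). Microglia markers gave 18 UMIs, at 0.143% in SwDI/TWT replicate 1 and 0.0103% to 0.0219% in the other 4 libraries with fibroblast nuclei. Oligodendrocyte markers were highest in SwDI/TWT replicate 1, at 0.255% of UMIs, against 0.0309% to 0.0643% in the other 4 libraries with fibroblast nuclei. Choroid plexus markers gave 12 UMIs, ependymal ones 2, and neuronal ones 33 (excitatory) and 3 (inhibitory). The nuclei are called fibroblast nuclei here, since none of the lists used divides meningeal from perivascular fibroblasts.

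The comparison with vessel nuclei was drawn by the same kind of gate, so it describes and does not test. The vessel nuclei had at least 4 UMIs and 0.4% over endothelial or mural markers and few fibroblast UMIs. They numbered 29, 5 and 20 in SwDI/TKO replicates 1 to 3 and 12, 5 and 12 in the SwDI/TWT libraries. Of 45 genes tested outside the gates 14 were called higher in fibroblast nuclei (31.1%) and 15 lower (33.3%), with edgeR and the library as a block. Mitochondrial genes and unnamed loci made up most of the lower ones. With library totals in place of TMM scaling the split was 18 higher and 9 lower. Slc7a11 stood at 3181 CPM in fibroblast and 37.0 in vessel nuclei, Ptgds at 26092 and 1037, and Errfi1, a feedback inhibitor of the epidermal growth factor receptor, at 3045 and 74.1. Igfbp7 went the other way, at 68.0 CPM in fibroblast and 2087 in vessel nuclei. The pericyte receptor Pdgfrb was at 289 and 1198 CPM and the transcription factor Ebf1 at 119 and 1494, and neither was among the genes tested.

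Detection at equal depth gave the same picture. With each nucleus thinned to 500 UMIs, Slc7a11 was found in 71.2% of fibroblast and 2.41% of vessel nuclei, and in 0.384% of excitatory neurons, which should lack it. Without thinning it was found in 41 of 52 fibroblast nuclei at a median of 1016 UMIs, and in 2.50% of excitatory neurons at medians of 2938.5 to 9140 UMIs a library. Ptgds was in 92.3% of thinned fibroblast nuclei, against 24.1% of vessel nuclei and 5.18% of excitatory neurons. Tbx18 was in 23.1%, against 2.41% and 0.0137%.

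**Figure D2:**
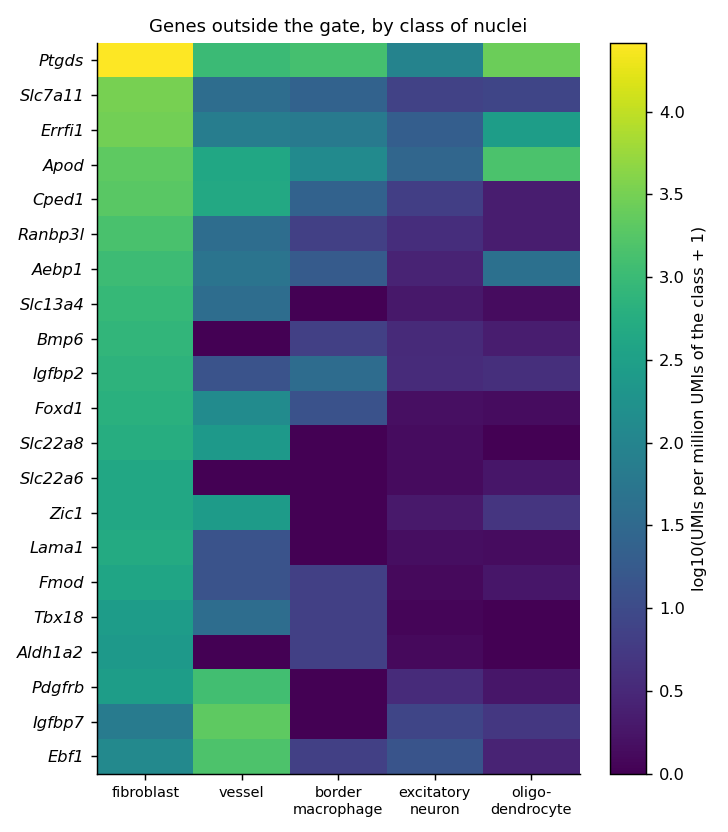
Colour gives the level of 21 genes outside the fibroblast gate, as log10 of CPM plus 1, in pooled nuclei of 5 classes. Ptgds, Slc7a11 and the solute carriers are brightest in the fibroblast column, and Pdgfrb, Igfbp7 and Ebf1 in the vessel column.

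One library was set apart by clustering. Clustering of the 52 nuclei gave 4 groups of 18, 15, 10 and 9 nuclei, and the last held exactly the 9 nuclei of SwDI/TKO replicate 1. That group was led by Trpm3 (chromosome 19, 22139046 to 22995410, plus strand), a cation channel gene with 831928 intron bases. Trpm3 had 364 UMIs in SwDI/TKO replicate 1 and 5 in SwDI/TKO replicate 3, against 1, 3 and 4 in the SwDI/TWT libraries. The neuronal splicing factor Rbfox1 had 35 UMIs, all of them in SwDI/TKO replicate 1. The other 43 nuclei mixed the remaining 4 libraries unevenly. SwDI/TWT replicate 3 gave 10 of the group of 18 and 1 of the group of 10, and SwDI/TWT replicate 2 gave 2 and 5. Among these 43 nuclei the group of 15 was led by Spo11 and had 48963 CPM of Ptgds. The group of 18 was led by Pdgfra and had 16822, and the group of 10 by Igfbp5 and had 15054. Slc6a13 was found in all 3 of these groups, at 1616 to 2904 CPM.

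Fibroblast nuclei made up a smaller mean share of nuclei in SwDI/TKO than in SwDI/TWT brains, within the spread of the libraries. They were 0.117%, 0% and 0.176% of kept nuclei in SwDI/TKO replicates 1 to 3, against 0.131%, 0.188% and 0.279% in SwDI/TWT replicates 1 to 3. The groups overlapped. The count of 0 in SwDI/TKO replicate 2 allows up to 0.0635% of its 4725 nuclei by a limit of 3 counts, and up to 0.0780% by the exact 95% interval. Exact 95% binomial intervals ran from 0.0533% to 0.221% in SwDI/TKO replicate 1 and from 0.0760% to 0.347% in SwDI/TKO replicate 3, and in the SwDI/TWT libraries the widest bounds were 0.0527% and 0.446%. Such intervals, and limits for a count of 0, cover counting error only. The means were 0.0975% ± 0.0895 in SwDI/TKO and 0.199% ± 0.0745 in SwDI/TWT (SD, n = 3 each), a difference of -0.102 percentage points (exact permutation test, two-sided, p = 0.2, where 0.1 is the smallest that 3 against 3 can give). The direction turned when nuclei were thinned to 1000 UMIs, in 1 random draw. Then 28, 1 and 5 nuclei passed in SwDI/TKO and 3, 5 and 11 in SwDI/TWT libraries, and the difference was 0.0473 percentage points (exact permutation p = 0.8). Thinning left out 288, 1183 and 980 shallower nuclei in SwDI/TKO and 1567, 1017 and 1110 in SwDI/TWT libraries. SwDI/TKO replicate 1 had 9 members, so its 28 included nuclei that the gate had left out at full depth. At full depth 44 of its nuclei had at least 4 gate UMIs but under 0.4% of their UMIs. Without SwDI/TKO replicate 1 the difference was -0.111 points as counted and -0.0502 points thinned (exact permutation p = 0.4 and 0.6). In the same libraries vessel nuclei were 0.307% ± 0.177 in SwDI/TKO and 0.169% ± 0.0737 in SwDI/TWT, and border macrophage nuclei 0.570% ± 0.380 and 0.355% ± 0.135 (SD, n = 3 each; exact permutation p = 0.3 and 0.6).

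**Figure D3:**
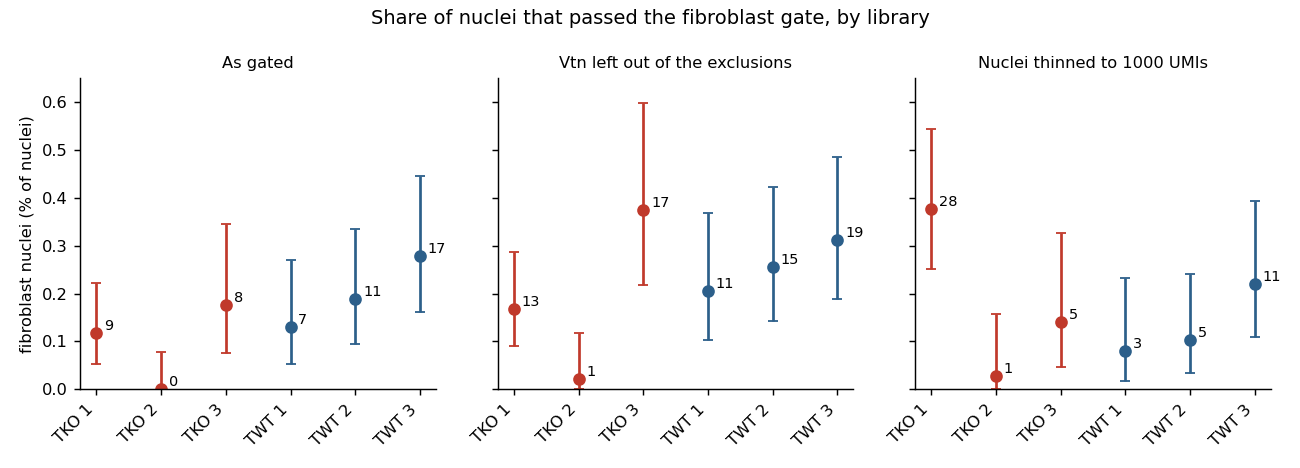
Points give the percent of nuclei that passed the fibroblast gate in each library, as gated (left), with Vtn left out of the exclusions (middle) and with nuclei thinned to 1000 UMIs (right), with exact 95% binomial intervals and the number of nuclei beside each point, SwDI/TKO in red and SwDI/TWT in blue. SwDI/TKO replicate 1 has 9 nuclei as gated and 28 after thinning to 1000 UMIs, and SwDI/TKO replicate 2 has 0 as gated.

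Between genotypes no single gene passed in the fibroblast nuclei. UMIs were summed per library, and since SwDI/TKO replicate 2 had no fibroblast nucleus, 2 SwDI/TKO libraries stood against 3 SwDI/TWT libraries. Only 62 genes had enough UMIs to test. Of these edgeR called 0 (0%) at an adjusted p of 0.05, with 6 at an unadjusted p under 0.05, and DESeq2 called 0, with 2. The fitted change was above 0 for 26 genes and below 0 for 36. Without SwDI/TKO replicate 1, which leaves 1 SwDI/TKO library whose spread is assumed to be that of the others, edgeR called 0 of 98 (0%), with 4 at an unadjusted p under 0.05. Of the 62 genes 43 kept their sign in that fit. Nothing here shows that the other genes were alike, since the standard errors lay between 0.45 and 0.71 on the log2 scale.

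The smallest p belonged to Alcam (ENSMUSG00000022636; chromosome 16, 52248996 to 52454074, minus strand), a cell adhesion protein of barrier tissues. It had 3203 and 2058 CPM in SwDI/TKO replicates 1 and 3, against 319, 1532 and 701 CPM in the SwDI/TWT libraries. These rest on 53 and 20 UMIs, against 2, 14 and 12. Both SwDI/TKO libraries were above all SwDI/TWT libraries. Its log2 difference of 2.02 had an SE of 0.62 and missed the threshold (edgeR adjusted p = 0.0793), and it was 1.11 (SE 0.70) without SwDI/TKO replicate 1. With library sizes taken over all genes, or with the 2 members called doublets left out, Alcam alone passed (edgeR adjusted p = 0.0357 and 0.0263), while over the alternatives run its adjusted p lay between 0.0259 and 0.998. Alcam has 197958 intron bases.

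Errfi1 and Slc7a11, both near the top of the genes that mark these nuclei, lay apart between the genotypes in opposite directions, and neither passed. Errfi1 (chromosome 4, 150853919 to 150868892, plus strand) had 3928 and 4837 CPM in SwDI/TKO and 3188, 2079 and 1636 CPM in SwDI/TWT libraries, so that both SwDI/TKO values lay above (log2 1.26, SE 0.50; edgeR adjusted p = 0.390; 1.01 without SwDI/TKO replicate 1). The change in Errfi1 was 0.77 without SwDI/TKO replicate 3, 0.73 with no mitochondrial limit and 0.11 when Vtn was left out of the exclusions. Slc7a11 had 1329 and 2573 CPM in SwDI/TKO and 6695, 5580 and 2746 CPM in SwDI/TWT libraries, so that both SwDI/TKO values lay below (log2 -1.11, SE 0.52; edgeR adjusted p = 0.390; -1.01 without SwDI/TKO replicate 1). It rests on 22 and 25 UMIs against 42, 51 and 47, and its change was -1.91 without SwDI/TKO replicate 3 and -0.72 with Vtn left out of the exclusions. Ccn2 averaged 502 ± 454 CPM in SwDI/TKO (n = 2) and 1410 ± 817 in SwDI/TWT (n = 3), with log2 -1.51 and the highest value in SwDI/TWT replicate 3, at 2337 CPM. Its change was -3.08 without SwDI/TKO replicate 3 and 0.51 when Vtn was left out of the exclusions.

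Among the other named genes, the changes of Nnat, Zbtb20 and Slc6a20a rested on SwDI/TKO replicate 1. Those of Cp and Slc1a3 shrank when either SwDI/TKO library was left out. Nnat, the imprinted gene neuronatin, had 43 UMIs in SwDI/TKO replicate 1 and 0 in SwDI/TKO replicate 3, against 2, 12 and 12 in SwDI/TWT libraries. Its log2 fold change of 1.38 became -6.10 without SwDI/TKO replicate 1. Without it Zbtb20, a transcriptional repressor, went from a log2 fold change of 1.36 to -0.88, and Slc6a20a from 1.17 to -0.027. Cp, the copper oxidase ceruloplasmin, had 1994 and 1956 CPM in SwDI/TKO and 638, 438 and 1987 CPM in SwDI/TWT libraries (log2 1.12, and 0.61 without SwDI/TKO replicate 1, 0.71 without SwDI/TKO replicate 3 and 2.25 without SwDI/TWT replicate 3). Slc1a3 had 1994 and 1956 CPM, against 1116, 1751 and 760 (log2 1.09, and 0.62 and 0.71 without SwDI/TKO replicates 1 and 3). Apoe, the lipid carrier apolipoprotein E, had 1329 and 5043 CPM in SwDI/TKO and 6058, 8315 and 4090 CPM in SwDI/TWT libraries (log2 -0.83, edgeR adjusted p = 0.573). Its change was -0.37 without SwDI/TKO replicate 1 and -2.23 without SwDI/TKO replicate 3. Without SwDI/TKO replicate 1 the early response gene Btg2 had the smallest p of the named genes (20 UMIs in SwDI/TKO replicate 3 against 3, 6 and 5 in SwDI/TWT; log2 2.03, SE 0.84). Against SwDI/TWT alone, SwDI/TKO replicate 1 gave 31 calls of 192 tested, 20 higher with a median of 340026.5 intron bases and 11 lower with a median of 541, where the median of all 192 was 35773.5. That lone library is assumed to vary like the others, the medians were compared with no test, and library, depth and software version cannot be told apart here.

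**Figure D4:**
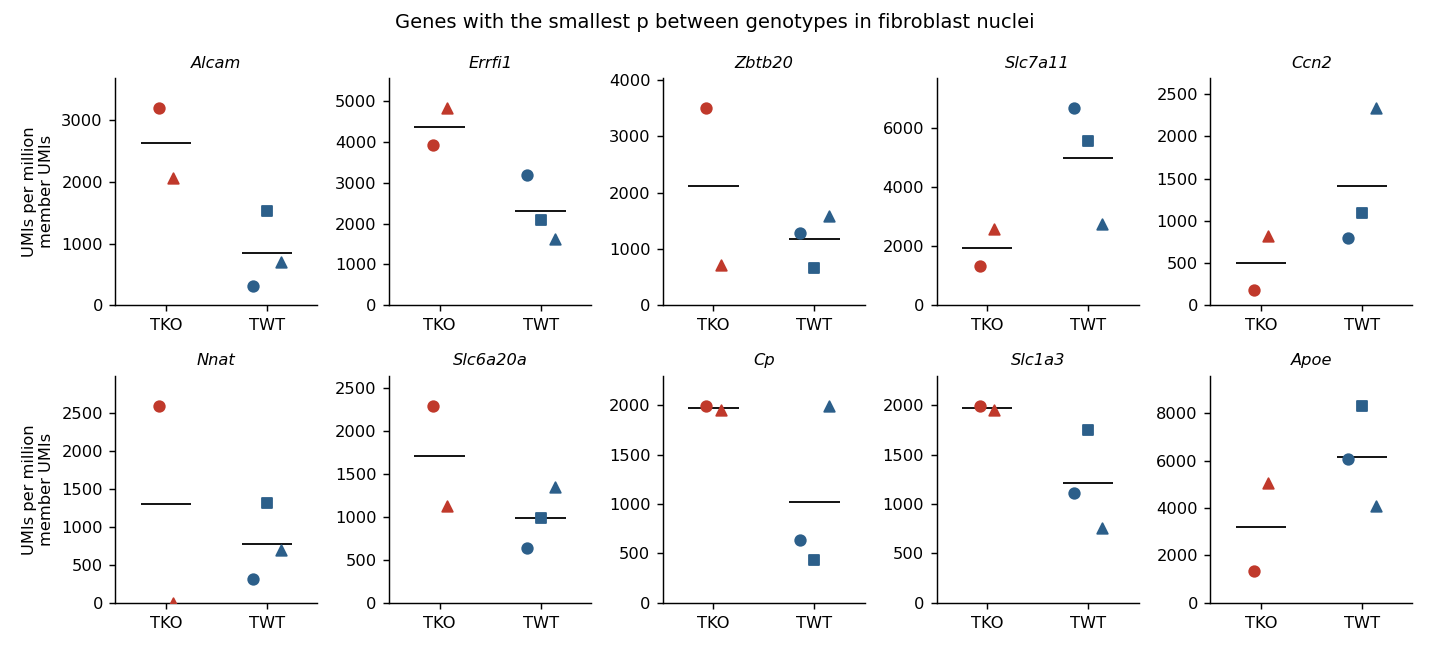
Each panel gives 1 of the 10 named genes with the smallest p, in CPM, with SwDI/TKO libraries in red left of SwDI/TWT libraries in blue, circles for replicate 1, squares for replicate 2, triangles for replicate 3 and lines for means. Alcam, Errfi1 and Slc1a3 lie apart and higher in SwDI/TKO and Slc7a11 apart and lower, and none passed the test.

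Without regard to the test, 5 of the 62 genes (8.06%) had both SwDI/TKO libraries above all SwDI/TWT libraries in CPM, and 5 (8.06%) had both below. The higher ones were Alcam, Errfi1, Slc1a3, Timp3 and the noncoding RNA Mir100hg. The lower ones were Slc7a11, Egr1, Apod, Pnisr and Snhg11. Timp3 had 1994 and 2161 CPM in SwDI/TKO and 638, 1532 and 1753 CPM in SwDI/TWT libraries (log2 0.91, SE 0.61; edgeR adjusted p = 0.653; 0.49 without SwDI/TKO replicate 1). Apod had 1148 and 1544 CPM in SwDI/TKO and 2551, 1641 and 3331 CPM in SwDI/TWT libraries (log2 -0.66, SE 0.60; edgeR adjusted p = 0.744). Ptgds, the highest of the leading genes, overlapped between the genotypes. It averaged 23636 ± 2235 CPM in SwDI/TKO (n = 2) and 31355 ± 10943 in SwDI/TWT (n = 3), with log2 -0.07 (SE 0.45). Slc6a13, which the gate used, averaged 2658 ± 170 CPM in SwDI/TKO and 2231 ± 618 in SwDI/TWT, and Dcn, also a gate gene, had 121 and 1956 CPM in SwDI/TKO replicates 1 and 3, against 656 to 1169 CPM in SwDI/TWT libraries.

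Most gene lists had too few testable members for a count of calls. Beside a median log2 change of -0.14 over all 62 tested genes (-0.34 with library totals), the 5 tested transporters had a median of 0.60 with 3 higher and 2 lower. That median is the value of the gate gene Slc6a13, it was 0.42 over the other 4, and without SwDI/TKO replicate 1 it was -0.027 over all 5, with 2 higher and 3 lower. The 4 tested genes of amyloid handling (Ptgds, Apoe, Timp3 and Itm2b) had a median of -0.28 with 1 higher and 3 lower. The 2 tested matrix glycoproteins were Ccn2 and Dcn. No member of the fibrillar collagen, basement membrane, bone morphogenetic protein, retinoid, complement or interferon lists had enough UMIs to test. App, the mouse amyloid precursor gene, had 10 and 2 UMIs in SwDI/TKO and 4, 0 and 12 in SwDI/TWT libraries.

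By their share of fibroblast UMIs, 3 of 20 lists (15%) had both SwDI/TKO libraries above all SwDI/TWT libraries and 0 (0%) had both below. These shares carry no test. Among the 20 are the gate genes and the exclusion genes themselves, whose shares the rule bounds, and a fibroblast marker list with 4 gate genes. Some other lists hold gate genes too. The nuclear RNA Malat1 made up 9.94% and 15.5% of the fibroblast UMIs in SwDI/TKO and 22.9%, 15.5% and 28.9% in SwDI/TWT libraries, and mitochondrial genes 0.689% and 2.19%, against 2.07%, 2.30% and 1.85%. As shares of the UMIs outside Malat1, a scale chosen after seeing the data, 2 of the 20 lists lay higher in both SwDI/TKO libraries and 0 lower. Mesenchymal transcription factors made up 0.695% and 0.720% in SwDI/TKO and 0.383%, 0.514% and 0.467% in SwDI/TWT libraries. Within it Foxp1, a forkhead factor, had 19 and 9 UMIs in SwDI/TKO and 1, 3 and 5 in SwDI/TWT libraries. Genes of transforming growth factor beta and bone morphogenetic protein signalling made up 0.483% and 0.298%, against 0.0956%, 0.109% and 0.117%. In SwDI/TKO replicate 1 Bmp6 gave 41 of the 80 UMIs of that list, and in SwDI/TKO replicate 3, where Bmp6 had 1, Bmp7 gave 8 of 29. The list of growth factor ligands and receptors made up 0.254% and 0.309%, against 0.239%, 0.208% and 0.251%, and overlapped outside Malat1. Fibrillar collagens overlapped, at 0.169% and 0.103% in SwDI/TKO and 0.159%, 0.142% and 0.175% in SwDI/TWT libraries, and so did interferon response genes, at 0.103% and 0.226% against 0.207%, 0.208% and 0.0760%.

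**Figure D5:**
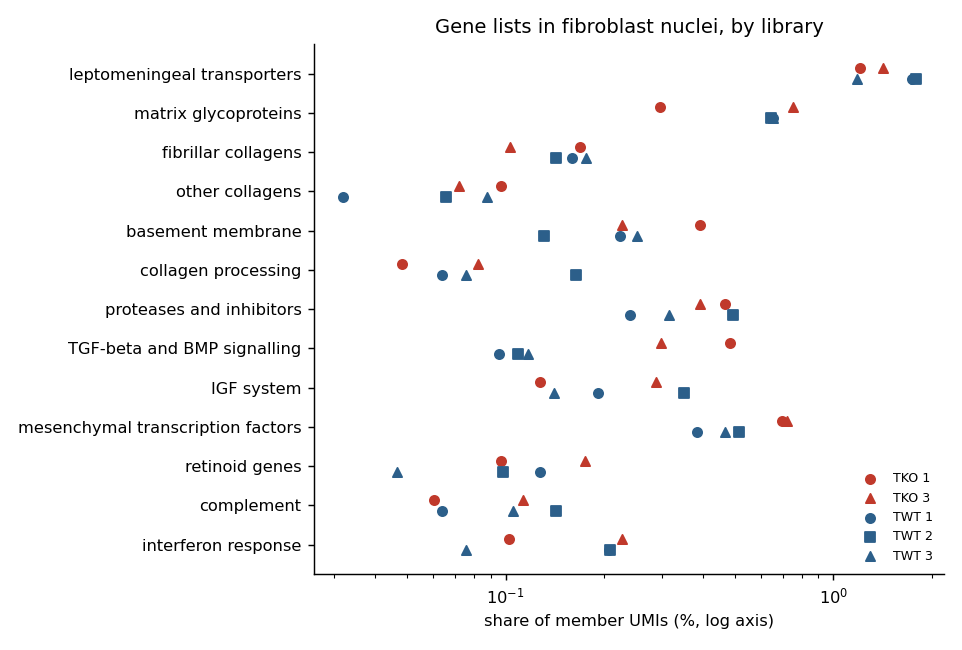
Points give the percent of fibroblast UMIs from each of 13 gene lists on a log axis, with SwDI/TKO libraries in red above SwDI/TWT libraries in blue, circles for replicate 1, squares for replicate 2 and triangles for replicate 3. The transforming growth factor beta and bone morphogenetic protein list and the mesenchymal transcription factors lie higher in both SwDI/TKO libraries, and the collagen lists overlap.

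Whether the genotype acted differently in fibroblast and vessel nuclei was tested as a class by genotype term with the library as a block. Of 167 genes edgeR called 0 (0%), with 5 at an unadjusted p under 0.05, and DESeq2 called 0, with 4. For Alcam the difference, fibroblast minus vessel, was 0.46 on the log2 scale (SE 2.10), and for Errfi1 it was 1.49 (SE 1.46), each with an edgeR adjusted p of 1. With 3862 to 33886 vessel UMIs in each of the 5 libraries fitted, differences of this size were not detectable at this depth.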

How the data were processed

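The deposited matrices hold raw UMI counts per gene and barcode (32285 genes) for 6 libraries. Per the file headers the authors counted them with Cell Ranger 6.1.2 in 5 libraries and 7.0.0 in SwDI/TKO replicate 1. Seurat and the build mm10 are listed in the submitters' processing notes, and no source used here says if introns were counted. Replicate numbers follow accession order and pair no samples. The mouse is the replicate, and nuclei are not.

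The members and the gene lists were chosen with earlier results of these data known, and the fibroblast gate was applied as stated in the report. Sums of UMI counts for each class in each library went into edgeR 4.0.16 under R 4.3.3 (quasi-likelihood functions glmQLFit, glmQLFTest; TMM factors, library sizes over the tested genes, filterByExpr, two-sided, Benjamini-Hochberg, threshold 0.05). A check by DESeq2 1.42.0 was run beside it. CPM in the text divide by the UMIs over all genes, so fitted log2 changes, which use TMM, can differ from ratios of CPM: the median change of the tested genes was -0.14 with TMM and -0.34 with library totals. The SE is the log2 change divided by the square root of F. SwDI/TKO replicate 2 had no member and is absent from these fits. Shares were compared by an exact permutation test over 20 assignments. Vessel, border macrophage (8 markers), oligodendrocyte and excitatory neuron nuclei (at least 2 Slc17a7 UMIs, no Gad1 or Gad2) were gated likewise. Nuclei were thinned without replacement to 500 or 1000 UMIs, in 1 random draw each. Scrublet at an expected rate of 6% marked 2 members as doublets, which were kept. Clusters came from Leiden in scanpy 1.11.5 (10 components, 10 neighbours, resolution 1, genes seen in at least 5 members).

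Named genes are the gate and exclusion genes, Trem2, App and Apoe, from each list up to 4 by smallest p and up to 4 by highest CPM, the 10 smallest p in the fit and the 10 without SwDI/TKO replicate 1 (apart from mitochondrial, sex-linked and unnamed loci), and the largest folds over vessel nuclei. Some that this rule selects are only counted. Trpm3, Rbfox1, Pdgfrb, Ebf1, the subgroup leaders, the genes whose groups did not overlap, Tbx18, Foxc1, Zic2 and genes named as absent were chosen after their values were seen. Positions and intron bases are from GENCODE M21 on mm10, which matched 32235 of 32285 identifiers. The tests were tried on simulated counts with known changes. One gene is not reported here.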

Additional observations from a re-analysis of the deposited data

How the results depend on the processing

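The count of genes called between genotypes was 0 in the fit reported, under DESeq2 and with no mitochondrial limit. This count was also 0 with Vtn left out of the exclusions and with library totals, both chosen after seeing the data. It was 3 without a low-count filter (Trpm3, Rbfox1 and Naaladl2), 1 without doublets and 1 with library sizes over all genes (chosen after seeing the data; Alcam in both), and 0 to 31 with 1 library left out, the 31 without SwDI/TKO replicate 3. Leaving out members under 500 UMIs left out none. The stricter gate of 6 UMIs and 0.8% kept 0, 0 and 2 members in SwDI/TKO and 2, 0 and 3 in SwDI/TWT libraries. It left 12 genes to test between genotypes and 1 SwDI/TKO library, too few for its count of calls to bear on the result. Calls against vessel nuclei numbered 29 of 45 tested as reported, 91 of 12954 without the filter and 8 of 20 with the stricter gate. With 1 library left out they numbered 24 to 33, of 37 to 69 tested. Between genotypes the fit without the filter tested 9849 genes. The difference between classes gave 0 under every alternative that kept at least 2 SwDI/TKO libraries with members. The difference in share was -0.102 points, 0.0473 after thinning to 1000 UMIs, and -0.141 to -0.0530 with 1 library left out; in the other alternatives it stayed below 0. Of the 10 named genes, Zbtb20 (-0.88 to 1.72 with 1 library left out), Nnat (-6.10 to 1.62) and Slc6a20a (-0.027 to 1.54) changed sign without SwDI/TKO replicate 1, and Ccn2 (0.51) with Vtn left out of the exclusions; the cause was not tested. Without SwDI/TKO replicate 3, Alcam, Slc7a11, Ccn2 and Apoe passed, on the strength of replicate 1 alone. No paired analysis was possible because replicate numbers follow accession order. Depth and the number of libraries both limit the results: 52 nuclei with 58791 UMIs left 62 genes to test, and 2 SwDI/TKO libraries held members.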

Other observations

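Dropping the mitochondrial limit brought in fibroblast nuclei unevenly: 14, 3 and 13 passed in SwDI/TKO replicates 1 to 3 and 10, 20 and 18 in SwDI/TWT replicates 1 to 3. That limit removed 4.62%, 9.39% and 29.96% of barcodes in the SwDI/TKO libraries and 15.5%, 17.8% and 6.31% in the SwDI/TWT libraries. With Vtn left out of the exclusions 13, 1 and 17 nuclei passed in SwDI/TKO and 11, 15 and 19 in SwDI/TWT libraries, and SwDI/TKO replicate 3 had the highest share, 0.374%.

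A further 65 nuclei had at least 4 gate UMIs but under 0.4% of their total, 44 of them in SwDI/TKO replicate 1. The neuronal gene Syt1 was at 170 CPM in the fibroblast nuclei and at 1068 CPM in these 65, which had 16622 CPM of Ptgds. Spo11, known for making the DNA breaks of meiosis, had 25 UMIs in the fibroblast nuclei and a level of 425 CPM, against 1.10 CPM in all other kept nuclei.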
